A study of Homo sapiens with 2 samples.

Results

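The genes described here are 54 genes of the TGF-beta and BMP signalling pathways, chosen by name. All 54 were found among the 20037 protein-coding genes of the RefSeq table on GRCh38.p14, the assembly that underlies hg38. They comprise 17 ligands, 12 receptors, 8 SMADs, 4 ID target genes, 6 antagonists, 3 genes of latency and processing and 4 intracellular regulators. For each gene, DNase I hotspots overlapping its span plus 50 kb on both sides were taken from Saos-2 and from U2OS, a pair of long-established lines grown from human osteosarcomas. DNase I cuts DNA that nucleosomes leave accessible, and a hotspot is a stretch that the authors called as enriched in such cuts at a false discovery rate of 0.05. Neither line carried a labelled treatment or genetic change, and each was represented by 1 library. The values therefore have no replicate error and no p-value, and every difference below is one between 2 libraries.

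Ligands of the TGF-beta superfamily are secreted dimers that bind paired type I and type II serine/threonine kinase receptors. The activated type I receptor phosphorylates receptor SMADs, which enter the nucleus with the common SMAD4, while secreted antagonists, inhibitory SMADs, ubiquitin ligases and corepressors restrain the signal. In bone, BMPs are known for driving osteoblast differentiation, and latent TGF-beta is stored in the matrix.

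The Saos-2 list held 51556 hotspots and the U2OS list 63388, a ratio of 1.23. The number of reads behind each list is unknown. Of 8 osteoblast lineage markers, 3 had a hotspot within 1 kb of a gene end in each line. RUNX2 and BGLAP were among them in both lines, ALPL in Saos-2 and COL1A1 in U2OS, whereas SP7, COL1A2, IBSP and SPP1 had none in either. The corresponding numbers were 2 of 5 blood markers in each line, and 0 of 5 epithelial markers in Saos-2 against 2 of 5 in U2OS (KRT8 and KRT18). Mesenchymal markers gave 2 and 1 of 5 in Saos-2 and U2OS, hepatocyte markers 1 of 3 in each, and neuronal markers 1 and 2 of 3. The part of such differences in cell state in the results below was not tested.

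The promoters of genes that were open at a listed start in only 1 line are shown first. A promoter window was the 300 bases from 250 before to 50 after a RefSeq start. Of the 54 genes, 46 had at least 1 such window in the RefSeq promoter table, and a gene was counted as open where any of its windows met a hotspot. BMP2, BMP3, BMP7, GDF6, ACVRL1, NOG, BMP1 and SKI had no entry. Of the 46 genes, 25 were open in both lines and 14 in neither, while 2 were open only in Saos-2 and 5 only in U2OS. These are 54.3%, 30.4%, 4.35% and 10.9%, beside 42.8%, 44.1%, 4.36% and 8.68% of the 15843 protein-coding genes with an entry. The shares of promoters open in 1 line were thus near those of all genes. A gene with more listed starts has more chances to count as open. The 46 genes had 76 windows, and the number of starts per gene was not matched here.

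In Saos-2 only, hotspots lay at the starts of ID3, a BMP target gene that encodes an inhibitor of DNA binding by basic helix-loop-helix factors, and of GREM1, which encodes the secreted BMP antagonist gremlin. Sequences are from RefSeq on GRCh38.p14, written 5′ to 3′ on the strand of the gene, with the bases inside the Saos-2 hotspot in capitals.
ID3 promoter window, chr1:23559452-23559751, minus strand: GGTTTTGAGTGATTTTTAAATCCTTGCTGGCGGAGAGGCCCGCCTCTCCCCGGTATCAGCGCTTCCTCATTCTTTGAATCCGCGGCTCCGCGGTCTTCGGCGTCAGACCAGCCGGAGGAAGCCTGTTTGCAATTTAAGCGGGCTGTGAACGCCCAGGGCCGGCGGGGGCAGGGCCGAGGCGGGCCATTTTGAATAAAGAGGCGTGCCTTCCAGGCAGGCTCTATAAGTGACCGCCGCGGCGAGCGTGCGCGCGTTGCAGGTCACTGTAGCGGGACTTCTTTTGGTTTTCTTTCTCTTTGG
GREM1 promoter window, chr15:32717754-32718053, plus strand: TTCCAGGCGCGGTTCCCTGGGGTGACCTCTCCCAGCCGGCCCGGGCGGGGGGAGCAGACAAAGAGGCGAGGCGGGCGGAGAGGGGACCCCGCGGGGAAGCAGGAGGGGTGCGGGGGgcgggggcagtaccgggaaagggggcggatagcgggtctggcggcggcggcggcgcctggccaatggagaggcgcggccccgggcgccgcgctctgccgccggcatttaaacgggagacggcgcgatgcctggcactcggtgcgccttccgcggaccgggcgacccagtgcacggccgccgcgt

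The ID3 hotspot covered all 300 bases of the window and had a −log10 significance of 5.45, at percentile 62.8 of the Saos-2 list. At GREM1 it covered 116 bases, with a value of 2.04 at percentile 15.2. The −log10 values are the authors' own and also depend on the depth of a library. They are given as descriptions, and percentiles rank a hotspot within its own list.

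In U2OS only, hotspots lay at listed starts of the ligand genes BMP4 and BMP5 and of receptor genes. The receptor genes were BMPR1B, which encodes a type I BMP receptor, ACVR1B, which encodes a type I activin receptor, and TGFBR3, which encodes the co-receptor betaglycan. Capitals here mark the bases inside the U2OS hotspot.
BMP4 promoter window, chr14:53953346-53953645, minus strand: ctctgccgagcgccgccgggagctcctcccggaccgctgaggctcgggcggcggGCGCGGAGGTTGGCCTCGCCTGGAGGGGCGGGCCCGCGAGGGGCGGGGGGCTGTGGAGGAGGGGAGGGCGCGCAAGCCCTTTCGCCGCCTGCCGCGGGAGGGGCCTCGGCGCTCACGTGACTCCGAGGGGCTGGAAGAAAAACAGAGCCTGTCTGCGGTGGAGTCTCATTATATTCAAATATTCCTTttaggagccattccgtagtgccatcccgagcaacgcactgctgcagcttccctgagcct
BMP5 promoter window, chr6:55875541-55875840, minus strand: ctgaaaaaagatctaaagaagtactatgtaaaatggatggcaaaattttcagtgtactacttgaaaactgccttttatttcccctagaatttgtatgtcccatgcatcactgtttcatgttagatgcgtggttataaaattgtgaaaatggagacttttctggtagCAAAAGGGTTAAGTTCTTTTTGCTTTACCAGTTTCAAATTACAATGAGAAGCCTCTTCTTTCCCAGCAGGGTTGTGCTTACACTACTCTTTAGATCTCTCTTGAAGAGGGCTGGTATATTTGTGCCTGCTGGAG
BMPR1B promoter window, chr4:94757705-94758004, plus strand: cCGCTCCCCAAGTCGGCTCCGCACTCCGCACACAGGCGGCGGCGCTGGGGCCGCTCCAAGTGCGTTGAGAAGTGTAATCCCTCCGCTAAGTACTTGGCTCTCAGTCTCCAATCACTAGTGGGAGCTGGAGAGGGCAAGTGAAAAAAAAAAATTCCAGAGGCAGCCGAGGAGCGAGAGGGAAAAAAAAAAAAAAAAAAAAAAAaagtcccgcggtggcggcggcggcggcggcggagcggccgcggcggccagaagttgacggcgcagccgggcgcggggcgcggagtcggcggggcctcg
ACVR1B promoter window, chr12:51951449-51951748, plus strand: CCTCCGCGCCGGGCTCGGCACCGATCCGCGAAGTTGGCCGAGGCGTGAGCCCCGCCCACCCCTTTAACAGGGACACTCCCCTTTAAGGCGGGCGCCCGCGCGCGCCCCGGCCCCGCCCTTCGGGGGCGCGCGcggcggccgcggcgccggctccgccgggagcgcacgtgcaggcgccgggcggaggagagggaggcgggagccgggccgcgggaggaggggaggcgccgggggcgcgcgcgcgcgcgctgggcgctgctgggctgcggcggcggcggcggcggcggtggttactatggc
TGFBR3 promoter window, chr1:91886102-91886401, minus strand: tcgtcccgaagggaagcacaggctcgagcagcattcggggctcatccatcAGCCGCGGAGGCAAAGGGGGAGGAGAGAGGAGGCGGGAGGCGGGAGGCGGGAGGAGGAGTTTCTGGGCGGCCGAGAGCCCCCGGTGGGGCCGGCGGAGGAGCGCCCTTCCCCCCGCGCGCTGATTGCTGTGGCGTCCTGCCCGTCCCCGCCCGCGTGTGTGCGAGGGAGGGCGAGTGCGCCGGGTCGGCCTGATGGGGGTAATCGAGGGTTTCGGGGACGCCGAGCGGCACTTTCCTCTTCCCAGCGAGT

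These 5 hotspots covered 187 bases at BMP4, 134 at BMP5, 201 at BMPR1B, 132 at ACVR1B and 250 at TGFBR3. Their −log10 values were 3.08, 2.52, 3.84, 3.62 and 2.21 in that order, and they ranked between percentiles 16.7 and 42.3 of the U2OS list. All 5 were therefore among the weaker hotspots of their list. For BMP4, ACVR1B and BMPR1B, the other listed starts of the gene met no hotspot in either line. At the 5′ end of the BMP4 span, however, a hotspot outside these windows was shared, with values of 4.95 in Saos-2 and 9.96 in U2OS. It lay 1.84 kb upstream of the nearest listed start in Saos-2 and 1.81 kb in U2OS, so the BMP4 class holds for the listed starts only.

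A set of 4 short motifs, named by the factors they are known to bind, was searched on both strands of the windows. The SMAD-binding element CAGAC was found in 48.7% of the 76 member windows and in 44.8% of the 22199 windows of the table. The GC-rich SMAD motif GGCGCC was found in 26.3% and 24.3%, the AP-1 motif TGANTCA in 6.58% and 6.15%, and the RUNX motif TGTGGT in 15.8% and 11.3%. In the printed windows, CAGAC occurred once in ID3 and once in BMP4, inside the capitals in both. GREM1 held 2 matches to CAGAC, 1 of them in capitals, and 2 to GGCGCC outside them. ACVR1B held 4 matches to GGCGCC, 1 of them in capitals, and the windows of BMP5, BMPR1B and TGFBR3 held none of the 4 motifs.

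The 25 genes open at a promoter in both lines included all 3 TGF-beta ligand genes, the receptor genes TGFBR1, TGFBR2, ACVR1, ACVR2B, BMPR1A and BMPR2, 7 of the 8 SMADs, and ID1, ID2 and ID4. BMP6, GDF5, INHBA, BAMBI, LTBP1 and SKIL completed them. At 3 of these genes, single starts still differed between the lines. A start of SMAD1 met a hotspot in Saos-2 only, over 52 bases, and the first start of LTBP1 in U2OS only, over 132 bases, while another start of each gene was open in both. At SMAD3 the open starts differed: 1 start met a hotspot in Saos-2 and 2 other starts met hotspots in U2OS, so no promoter site was shared. The strongest promoter hotspot ranked higher in its own list in U2OS for 12 of the 25 genes and in Saos-2 for 13, and the medians were percentile 62.4 in Saos-2 and 58.1 in U2OS.

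SMAD2, which encodes a receptor SMAD of the TGF-beta branch, had a promoter hotspot with a value of 25.8 in Saos-2 and 5.64 in U2OS, at percentiles 97.9 and 58.1. TGFB2 lay at percentile 62.9 in Saos-2 and 10.7 in U2OS, and BAMBI, which encodes a pseudoreceptor without a kinase domain, at 53.4 and 9.78. BMP6 stood the other way, at percentile 62.4 in Saos-2 and 86.5 in U2OS, as did GDF5 at 51.3 and 74.0. The promoter of SMAD5, a receptor SMAD of the BMP branch, ranked high in both, at percentiles 87.3 and 93.1.

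**Figure D1:**
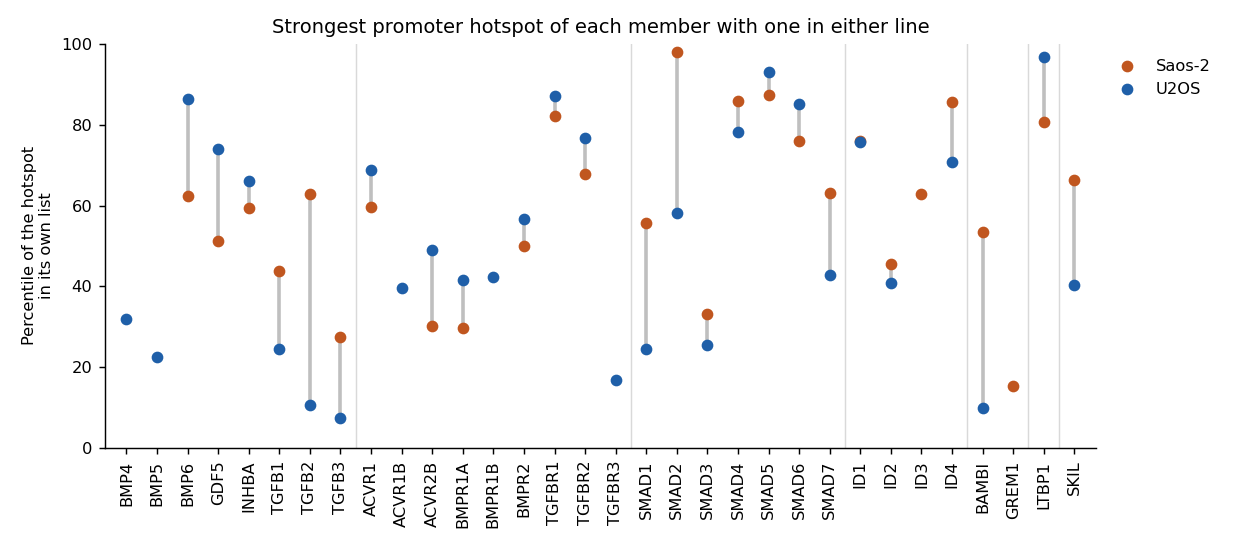
Percentile in its own list (vertical axis, %) of the strongest promoter hotspot of each of the 32 genes with one in either line; orange points are Saos-2, blue points are U2OS, and a grey line joins the lines' values. Genes with a single point were open in 1 line only, and the 5 seen in U2OS alone lie between percentiles 16.7 and 42.3.

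Over all 54 windows, which span 9.22 Mb, there were 274 Saos-2 and 353 U2OS hotspots. The ratio was 1.29 (exact 95% interval 1.10 to 1.51, counting error only), beside 1.19 over the windows of all protein-coding genes. Hotspots of 1 locus are not independent, so the interval is too narrow as a measure of anything but counting. In bulk chromatin, a site open in fewer cells and a site less open in each cell cannot be told apart. U2OS had more hotspots at 36 genes (66.7%), Saos-2 at 12 (22.2%), and 6 were equal (11.1%). Over all protein-coding genes these shares were 51.0%, 29.2% and 19.9%, so U2OS was also the more frequent higher line there. The median per gene was 4 in Saos-2 and 5.5 in U2OS, and 4 in both lines over all protein-coding genes. A hotspot lay within 1 kb of an end of the gene at 29 of the 54 genes in Saos-2 (53.7%, beside 47.8% of all) and at 35 in U2OS (64.8%, beside 53.2%).

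A gene was called where 1 line had at least 2-fold as many hotspots and at least 3 more. By this rule 11 of 54 genes were higher in U2OS (20.4%, beside 15.6% of all protein-coding genes), and 1 was higher in Saos-2 (1.85%, beside 5.54%). Among genes with at least 3 hotspots in a line, the shares were 22% of 50 genes for U2OS, beside 19.3%, and 2.0% for Saos-2, beside 6.83%. After division by the whole-list ratio, 4 genes remained above the rule in U2OS (7.41%, beside 7.65%) and 1 in Saos-2 (1.85%, beside 7.28%). For this, Saos-2 counts were multiplied and U2OS counts divided by the square root of the ratio. Both parts of the rule were applied to the scaled counts, so a gene with 0 and 3 hotspots could not be called. The U2OS share of members was thus near the background once list length was divided out. The 4 that remained were BMP5, BMP6, BMP10 and SMAD4.

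**Figure D2:**
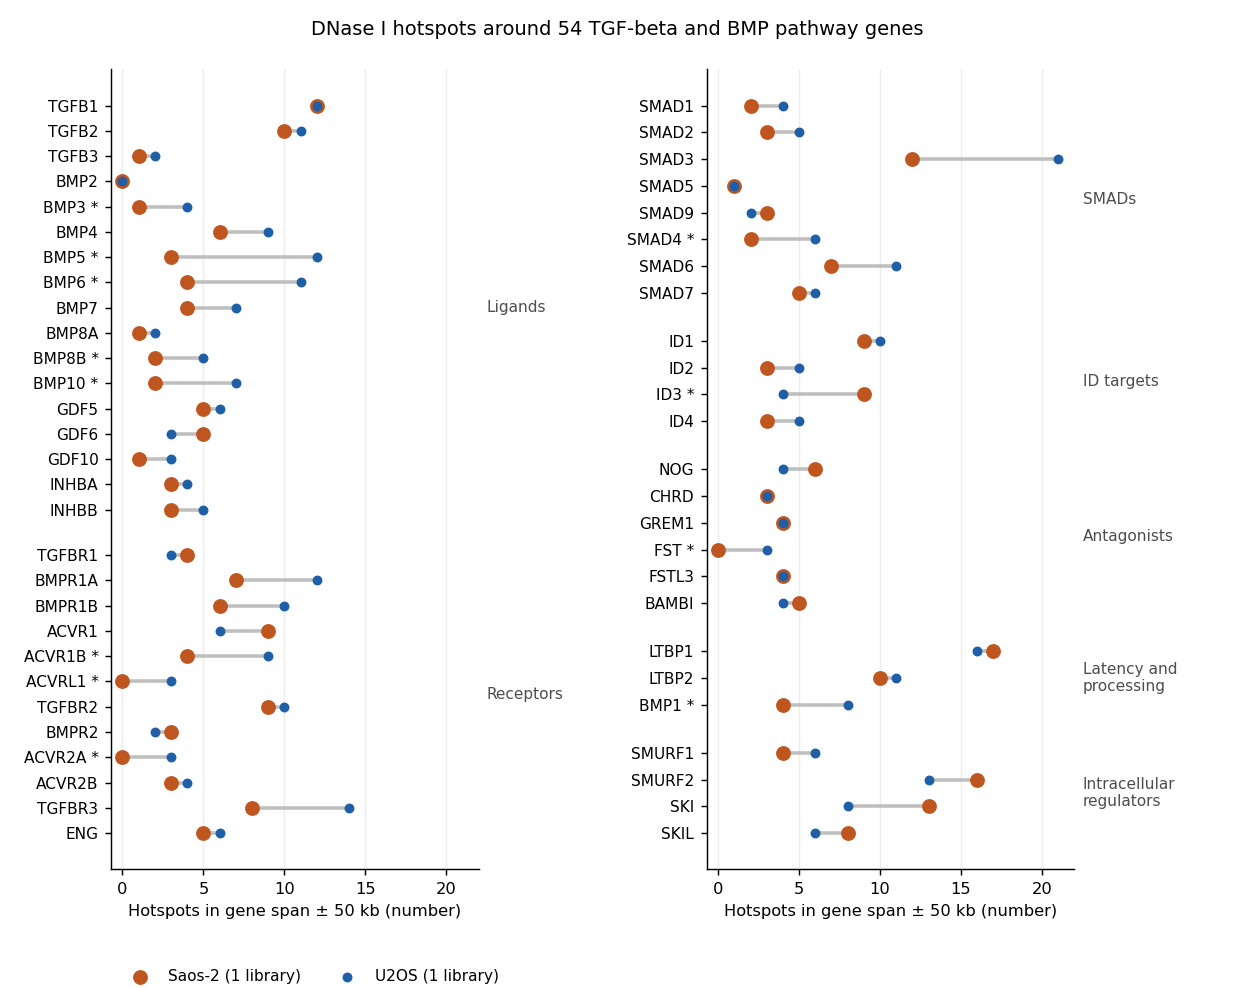
Number of hotspots within the gene span plus 50 kb on both sides (horizontal axis) for each of the 54 genes, by role; large orange points are Saos-2, small blue points U2OS, and an asterisk marks a called gene. U2OS lies to the right at 36 genes, with SMAD3 at 21 against 12, and ID3 is the 1 called gene with more in Saos-2, at 9 against 4.

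The 17 ligand genes together had 63 Saos-2 and 103 U2OS hotspots, a ratio of 1.63 (1.18 to 2.27). This interval includes the ratio of 1.19 over the windows of all protein-coding genes. With lists of equal length the ligand ratio was 1.32 and its interval included 1 (0.94 to 1.86). Most of the difference lay in the 12 BMP and GDF ligand genes, which had 34 and 69 (2.03, 1.33 to 3.16). U2OS had more at 10 of the 12 (83.3%, beside 51.0% of all protein-coding genes), and 5 were called (41.7%, beside 15.6%). These genes were singled out after their values were known, so the shares are a description. The 3 TGF-beta ligand genes had 23 and 25 hotspots (1.09, 0.59 to 2.0), and the 2 activin subunit genes 6 and 9. The difference between these ligand classes was not tested.

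BMP5, a BMP ligand with roles in skeletal development, spans chr6:55753653-55875590. It had 3 Saos-2 and 12 U2OS hotspots, covering 487 and 3481 bases, although chromosome 6 as a whole had slightly fewer hotspots in U2OS (ratio 0.97). A single site, 6.50 kb inside the gene, was shared, with a −log10 value of 3.32 in Saos-2 and 22.2 in U2OS. The other 11 U2OS hotspots met none in Saos-2 and ran from 49.9 kb upstream through the gene to 141 kb downstream of the start. BMP5 was called under all 9 alternative settings.

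BMP6 is a BMP ligand also known for inducing hepcidin, and spans chr6:7726099-7881728. It had 4 Saos-2 and 11 U2OS hotspots. Both lines shared the promoter and a site 32.5 kb inside the span. The second site had a value of 25.6 at percentile 97.8 in Saos-2 and of 13.4 at percentile 85.1 in U2OS. The remaining 9 U2OS hotspots had no counterpart, and 6 of them lay inside the span.

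BMP10, a ligand best known from the heart, spans chr2:68860909-68871397 and had 2 Saos-2 and 7 U2OS hotspots. All lay in the flanks and none at the gene, and both Saos-2 sites were shared. The stronger in U2OS, 42.0 kb downstream of the start, had a value of 2.84 in Saos-2 and 15.3 in U2OS. The stronger in Saos-2, 37.2 kb upstream, had values of 3.89 and 7.98. BMP3, which encodes an atypical ligand that opposes osteogenic BMPs, spans chr4:81030708-81057627 and had 1 and 4 hotspots. The single Saos-2 site was shared and lay in a flank, and 2 of the U2OS sites overlapped the span. Of these, chr4:81030509-81030724, with a value of 3.68, crossed an end of the BMP3 span, and Saos-2 had no hotspot there. BMP8B, at chr1:39757182-39788865, had 2 and 5, all in the flanks. BMP8A, its close paralog, had 1 and 2. Values at this pair are uncertain, since the treatment of reads that match both copies is not given in the sources used here.

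BMP4, a ligand central to mesoderm and bone formation, spans chr14:53949736-53956891 and had 6 Saos-2 and 9 U2OS hotspots, of which 5 were shared in each. A shared hotspot 44.2 kb upstream of the nearest start was the strongest of the locus in U2OS, at a value of 41.3 and percentile 99.0. In Saos-2 the same site had a value of 14.9 at percentile 91.6. BMP2, the osteogenic ligand at chr20:6767686-6780246, had no hotspot in its window in either line. Of the 54 genes, 4 had no hotspot in Saos-2 (7.41%, beside 10.8% of protein-coding genes) and BMP2 alone had none in U2OS (1.85%, beside 6.02%). An uncalled site is one below the authors' threshold at an unknown depth.

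The other BMP and GDF ligand genes were not called. BMP7 had 4 Saos-2 and 7 U2OS hotspots, GDF5 had 5 and 6, and GDF10 had 1 and 3. GDF6 had 5 and 3, the reverse order, on chromosome 8, where the whole-chromosome ratio was 1.64. Per 100 kb of window, TGFB1 was the most densely covered ligand gene in both lines, at 9.71 hotspots in each. Its 12 hotspots per line were almost all shared, 10 in Saos-2 and 11 in U2OS. The strongest, with a value of 28.5 in each line, lay 43.7 kb upstream at the starts of BCKDHA and EXOSC5. TGFB2 had 10 and 11 hotspots with 6 shared in each, and TGFB3 had 1 and 2. INHBA had 3 and 4 and INHBB 3 and 5, and every Saos-2 hotspot at these activin subunit genes was shared.

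The 12 receptor genes had 58 Saos-2 and 80 U2OS hotspots (1.38, 0.97 to 1.97). Of these genes, 3 were called, all higher in U2OS (25.0%, beside 15.6% of all protein-coding genes). ACVR1B, at chr12:51951699-51997078, had 4 and 9. Its promoter hotspot and another 0.51 kb upstream were seen in U2OS only. The strongest site, 79.7 kb downstream and inside NR4A1, was shared at values of 7.33 and 16.4. Other hotspots of this window also lay inside NR4A1 in both lines. ACVRL1 encodes ALK1, a type I receptor of endothelial cells, at chr12:51906944-51923361, and had 0 and 3. Of those 3, 2 were the ACVR1B promoter hotspot and the hotspot 0.51 kb upstream of the ACVR1B start, which fall in both windows. Without hotspots at the starts of other genes, neither gene was called. ACVR2A, which encodes a type II activin receptor at chr2:147844517-147930822, had 0 and 3, with values from 2.05 to 4.75. The U2OS hotspot with a value of 4.49 covered the 5′ end of the ACVR2A span. It lay 0.671 kb upstream of the listed start, outside the promoter window.

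TGFBR3 spans chr1:91680343-91906002 and had 8 Saos-2 and 14 U2OS hotspots, with 6 shared in each. Its strongest U2OS hotspot, at a value of 26 and percentile 95.9, lay inside the span 149 kb downstream of the start and had no counterpart in Saos-2. BMPR1B spans chr4:94757955-95158450 and had 6 and 10, with 3 shared in each. Both lines had a strong site 78.5 kb past the nearest start, at values of 15 and 25.5. TGFBR2, the type II receptor of TGF-beta, had 9 and 10 hotspots. A site inside its span ranked at percentile 96.7 in Saos-2 and 81.8 in U2OS. The order was reversed at a site 115 kb downstream of the start, at percentiles 75.3 and 98.7. The remaining receptor genes ranged from 3 to 9 hotspots in Saos-2 and from 2 to 12 in U2OS. ACVR1 was one of 3 with more in Saos-2, at 9 and 6, beside TGFBR1 at 4 and 3 and BMPR2 at 3 and 2. BMPR1A had 7 and 12, ACVR2B 3 and 4, and ENG, which encodes endoglin, 5 and 6.

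The 8 SMAD genes had 35 Saos-2 and 56 U2OS hotspots (1.60, 1.03 to 2.52), an interval that includes the 1.19 over the windows of all protein-coding genes. The interval included 1 with windows of 10 kb (0.84 to 2.45) or 100 kb (0.96 to 1.86), with lists of equal length (0.79 to 2.02) and in the stronger 50% of each list (0.92 to 3.64). SMAD3, the receptor SMAD at chr15:67065602-67195169, had the most of all members in U2OS, with 21 against 12 in Saos-2. It was not called on number, but the covered length was 7314 bases in U2OS and 3078 in Saos-2, and the same rule applied to covered bases was met. The strongest hotspot of all members in U2OS, chr15:67049195-67050363, lay 15.8 kb upstream of the first start. It was 1169 bases wide, had a value of 50.8 at percentile 99.5, and met no hotspot in Saos-2. A second upstream hotspot, 21.1 kb from the start, had a value of 38.8 and also no counterpart. The third strong site, inside the span, was shared, with a value of 43.6 in U2OS and of 6.97 in Saos-2, where it was the strongest of the locus. On chromosome 15 the ratio was 1.41.

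SMAD4, the SMAD common to both branches, spans chr18:51030213-51085042 and had 2 Saos-2 and 6 U2OS hotspots. Both Saos-2 sites were shared, and the promoter hotspot ranked at percentile 86.0 in Saos-2 and 78.2 in U2OS. The U2OS surplus included a hotspot 43.6 kb upstream, inside ELAC1, with a value of 11.3. SMAD4 was no longer called after division by the ratio of chromosome 18, which was 1.43. SMAD2 had 3 and 5 hotspots. SMAD1 had 2 and 4, SMAD5 had 1 at its promoter in each line, and SMAD9, the only SMAD gene open at a promoter in neither line, had 3 and 2. The inhibitory SMAD6 had 7 and 11 and SMAD7 5 and 6, with 5 shared in each line at both genes.

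**Figure D3:**
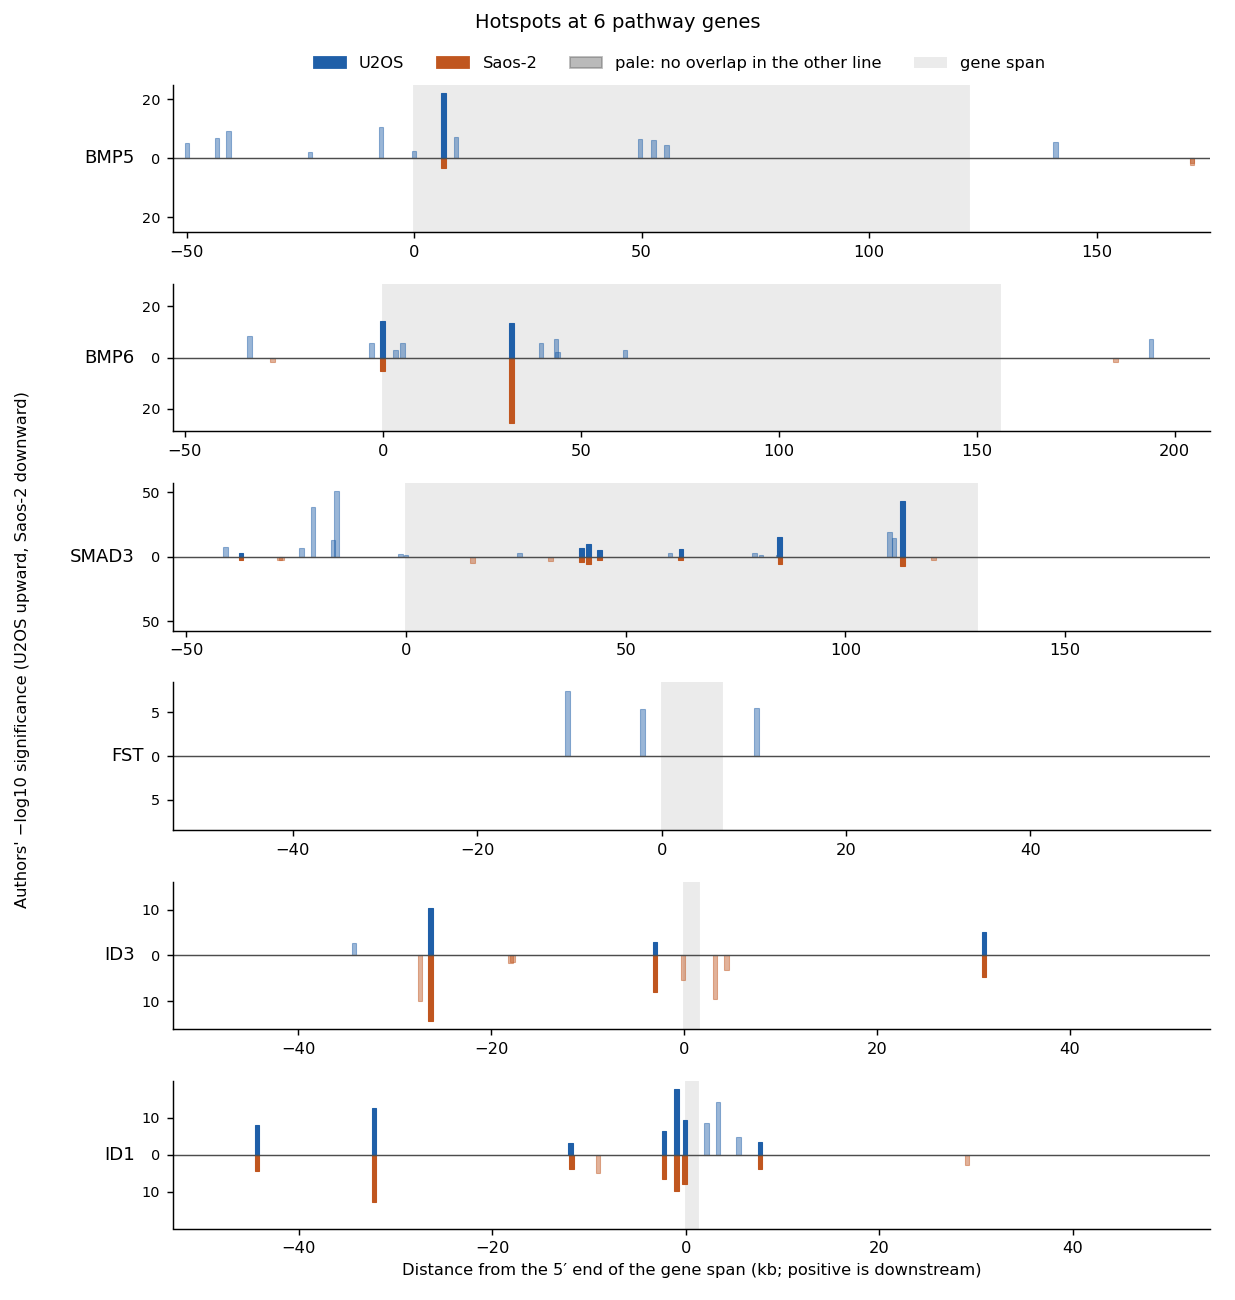
Hotspots at 6 genes by distance from the 5′ end of the gene span (horizontal axis, kb), with the authors' −log10 significance upward in blue for U2OS and downward in orange for Saos-2; pale bars met no hotspot of the other line, bars are drawn wider than the hotspots, and grey marks the gene span. BMP5 shows 11 pale U2OS bars and 1 shared site, SMAD3 the U2OS hotspots of 50.8 and 38.8 upstream, and ID3 a promoter bar in Saos-2 only.

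The 4 ID target genes had 24 hotspots in each line, and 66.7% of them were shared in each. Within this equal total, ID3 had 9 in Saos-2 and 4 in U2OS, and ID1, ID2 and ID4 had 9 and 10, 3 and 5, and 3 and 5. ID3, at chr1:23557926-23559501, was the only called gene with more in Saos-2, on a chromosome with a ratio of 1.04. Hotspots in Saos-2 alone included, besides the promoter, sites 3.23 kb downstream of the start, with a value of 9.52, and 27.4 kb upstream, with a value of 9.94. A site 26.3 kb upstream was shared at values of 14.3 and 10.4. ID3 was called under 8 of 9 alternative settings, the exception being the window of 100 kb. ID1 was among the most densely covered members in both lines, at 8.89 and 9.88 hotspots per 100 kb, with 7 shared in each line and the promoter at percentiles 76.1 and 75.7. U2OS alone had 3 hotspots from 2.15 to 5.46 kb downstream of the ID1 start.

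The 6 antagonist genes had 22 hotspots in each line, with 45.5% shared in each. FST, which encodes the activin-binding follistatin at chr5:53480629-53487134, was the only one called, with 0 in Saos-2 and 3 in U2OS. These lay 10.2 and 2.08 kb upstream and 10.3 kb downstream of the start, with values from 5.38 to 7.49 and with none at the promoter window. GREM1, at chr15:32718004-32745106, had 4 in each line but shared 1, a site 55.7 kb downstream of the start with values of 18.1 in Saos-2 and 9.95 in U2OS. U2OS alone had a hotspot of 9.41 inside the GREM1 span. NOG, which encodes the BMP antagonist noggin, had 6 and 4, CHRD, which encodes chordin, 3 in each, FSTL3 4 in each and BAMBI 5 and 4.

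The 3 genes of latency and processing had 31 Saos-2 and 35 U2OS hotspots. LTBP1 encodes a matrix protein that binds latent TGF-beta and spans chr2:32946953-33399509. It had 17 and 16, the most of all members in Saos-2, but over a window of the longest gene span among the members its density was 3.08 and 2.90 per 100 kb. The strongest Saos-2 hotspot of all members, chr2:32916179-32916441, lay 30.6 kb upstream of LTBP1 with a value of 55.6 at percentile 99.8. It and its neighbour, with a value of 27.7, were 263 and 246 bases wide and met no hotspot in U2OS. Read filters and the treatment of multiply mapped reads are unknown here, and a mapping artefact at these hotspots was not tested. The shared promoter hotspot of LTBP1 was stronger within its list in U2OS, at percentile 96.7 against 80.8. LTBP2 had 10 and 11 hotspots with 7 shared in each, and its strongest U2OS hotspot, with a value of 41.2, lay at the starts of ISCA2 and NPC2. BMP1, which encodes a procollagen C-proteinase and is no BMP ligand, lies at chr8:22165372-22212326. It had 4 and 8 on chromosome 8, and was not called after division by that chromosome's ratio of 1.64.

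The 4 intracellular regulators ran the other way in number, with 41 Saos-2 and 33 U2OS hotspots (0.80, 0.49 to 1.30). This interval includes 1 and also the 1.19 over the windows of all protein-coding genes. None was called. SKI and SKIL, which encode SMAD corepressors, had 13 and 8, and 8 and 6. SKI, at chr1:2228319-2310213, had its strongest Saos-2 hotspot without a counterpart at a value of 15.5 in the flank inside FAAP20. The ubiquitin ligase genes SMURF1 and SMURF2 had 4 and 6, and 16 and 13. At SMURF2, at chr17:64542282-64662307, 11 were shared in each line, and its strongest, with values of 28.4 in Saos-2 and 17.9 in U2OS, lay at the starts of CEP95 and DDX5. At SMURF1 a U2OS hotspot with a value of 29.8, 18.5 kb upstream and inside KPNA7, had no counterpart in Saos-2. In the stronger 50% of each list the ratio of this group was 1.12, and that of the antagonists 1.86 (0.69 to 5.50).

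Of the hotspots in the 54 windows, 62.8% of those in Saos-2 (56.8 to 68.5) were overlapped by U2OS, and 49.6% of those in U2OS (44.2 to 54.9) by Saos-2. The windows of all protein-coding genes gave 60.3% and 50%, and the whole lists 58.1% and 46.9%. The members' U2OS share was therefore close to that of all genes. Shares differed by position. At promoter windows 90.0% and 77.1% were shared, inside the spans 57.3% and 42.9%, and in the flanks 60.6% and 48.3%. Shares by position were computed for the members only, so nothing particular to them is read from these. At the BMP and GDF ligand genes the U2OS share was 30.4% (19.9 to 42.7), where Saos-2 had 64.7%. The shared numbers were close, 21 of 69 in U2OS and 22 of 34 in Saos-2. The low U2OS share therefore largely restates the ratio in number and is not a separate trait. The U2OS share was 72.0% (50.6 to 87.9) at the TGF-beta ligand genes, 71.4% (41.9 to 91.6) at the SMAD corepressor genes and 68.4% (43.4 to 87.4) at the SMAD ubiquitin ligase genes. The intervals of the last 3 overlap, and that of the corepressor genes also overlaps that of the BMP and GDF ligand genes. Those of the corepressor and ubiquitin ligase genes include the 50% of all protein-coding genes. These 3 roles were named for their high values. Hotspots with no overlap were narrower and weaker. Their median width was 182.5 bases in Saos-2 against 271.5 for shared ones, and 205 against 310 in U2OS. Their median −log10 value was 2.80 against 4.69 in Saos-2 and 3.46 against 6.03 in U2OS. The windows of all protein-coding genes gave the same order. Median widths there were 193 against 284 bases in Saos-2 and 201 against 314 in U2OS. Median values there were 2.97 against 5.35 and 3.32 against 7.25.

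**Figure D4:**
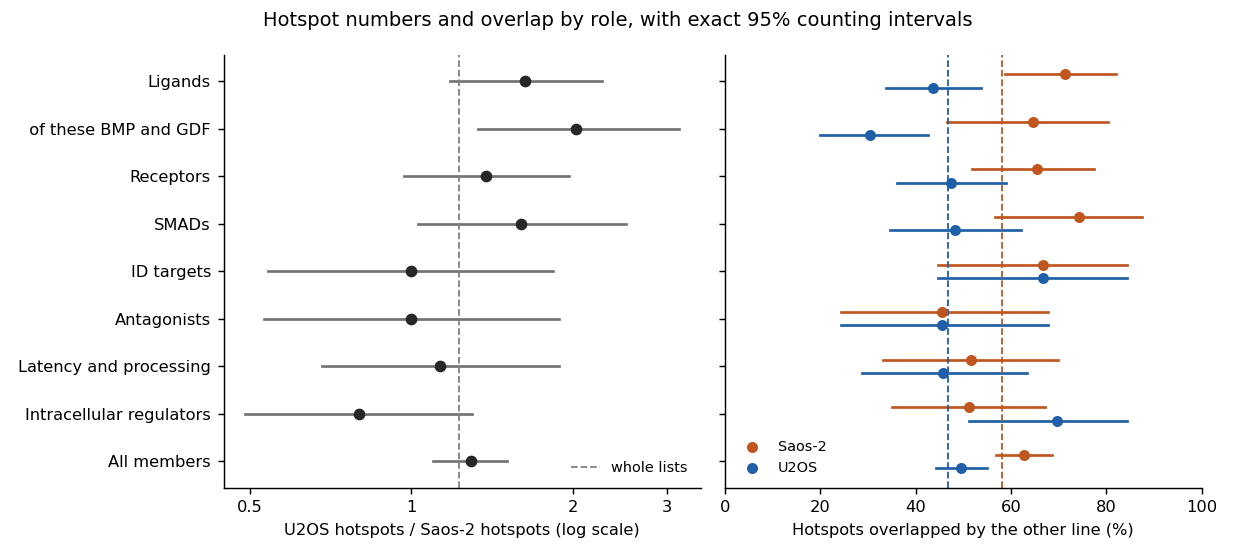
Left, ratio of U2OS to Saos-2 hotspots by role (log scale), with the whole-list ratio of 1.23 dashed; right, share of each line's hotspots overlapped by the other line (%), with the whole-list shares of 58.1% (Saos-2, orange) and 46.9% (U2OS, blue) dashed. Bars are exact 95% counting intervals from 1 library per line. The BMP and GDF ligand genes stand at 2.03 on the left and at 30.4% for U2OS on the right, values that are not independent of each other.

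Other genes of the same pathways, 51 in a list beside the members, had 235 Saos-2 and 266 U2OS hotspots (1.13, 0.95 to 1.35). By the same rule U2OS was higher at 11 of them (21.6%, beside 15.6% of all protein-coding genes) and Saos-2 at 4 (7.84%, beside 5.54%). Nothing particular to this list is read from these shares. Those higher in U2OS included GDF11, RGMB, LTBP3, NBL1, CER1, SOST, CHRDL1, TGIF1, TGIF2 and TRIM33. TGIF1, which encodes a SMAD corepressor, had 3 Saos-2 and 16 U2OS hotspots, and LTBP3 had 3 and 12. SOST, which encodes the osteocyte protein sclerostin, had 3 and 8. The 4 higher in Saos-2 were HJV with 14 and 4, FBN1 with 14 and 7, DCN with 7 and 3, and USP15 with 7 and 2. HJV encodes the BMP co-receptor hemojuvelin, and FBN1 encodes fibrillin, to which latent TGF-beta complexes bind in the matrix.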

How the data were processed

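DNase-seq was performed on Saos-2 and U2OS, 1 library per line. Per the labels' protocols, nuclei were digested with DNase I for 3 min. Per the submitters' processing notes, Trimmomatic 0.38, BWA 0.7.15 and hg38 were used. The hotspot caller, read filters and treatment of duplicate and multiply mapped reads are not given in the sources used here. The authors deposited 1 hotspot list per library, called at a false discovery rate of 0.05. Each deposited hotspot has a −log10 value, read as its significance because the lowest value, 1.30, is the −log10 of 0.05. The lists carry no header that names it. The deposited score is 10 times that value, rounded, and was not used.

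Hotspots were counted as deposited where they overlapped a gene span plus 50 kb on both sides by at least 1 bp. Gene spans and promoter windows came from RefSeq tables on GRCh38.p14. The promoter window had been planned for 1 start per gene, and all listed starts were used. Intervals are exact (Clopper-Pearson) 95% binomial intervals, transformed to ratios where needed, and cover counting error only. Depth is unknown, and a longer list can come from more reads. All counts were made in Python 3.11.15 with pandas 2.3.3, NumPy 2.4.6 and SciPy 1.17.1, and the counting functions were tested on simulated data. No statistical test was possible with 1 library per line. Values are given in full for genes past the rule of at least 2-fold and 3 more hotspots, genes open at a promoter in 1 line, genes holding the 5 strongest hotspots per line, and genes with no hotspot in a line. The others are given by counts and ranges, and single sites at them were chosen after their values were seen. The genes and lists were chosen with earlier results of these data known. Some items that these rules select are counted but not reported here by name. Alternatives were other windows, equal or stricter lists, merging of hotspots less than 150 bp apart, division by the whole-list or chromosome ratio, covered bases (at least 2-fold and 600 more), stricter overlap, a wider promoter window, and omission of hotspots within 1 kb of other genes' starts. With division by a ratio, both the fold and the difference of at least 3 were required of the scaled counts.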

Additional observations from a re-analysis of the deposited data

How the results depend on the processing

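No paired analysis was possible because each line was represented by 1 library. Of 148 recomputed values, 88 were counts, ratios or shares, of which 65 stayed within their counting interval or, for counts, within 1.5 times. The other 60 were differences in hotspot number at the 12 called genes. Of these, 55 kept their direction, but 41 stayed within 1.5 times, 4 became 0 and 1 reversed. With a window of 10 kb there were 155 hotspots in Saos-2 and 199 in U2OS, with 3 genes called in each direction. With 100 kb there were 428 and 540, 14 genes were called for U2OS, 9 of them among the 11, and 2 for Saos-2, neither of them ID3. With U2OS reduced to the strongest hotspots equal in number to Saos-2, the ratio over all windows was 1.08 (0.91 to 1.27). There 6 genes were called for U2OS, all among the 11, and 3 for Saos-2, and 5 promoters were open in Saos-2 only. At equal lists the interval of the ligand ratio (1.32, 0.94 to 1.86) and of the SMAD ratio (1.26, 0.79 to 2.02) included 1, and that of BMP and GDF ligand genes (1.71, 1.10 to 2.69) did not. The BMP and GDF ligand genes were singled out after their values in these same lists were known, so their interval is a description and no support. The SMAD interval also included 1 with windows of 10 kb (0.84 to 2.45) and 100 kb (0.96 to 1.86) and in the stronger 50% of each list (0.92 to 3.64), and with merged hotspots it began at 1.0. In the main setting the ligand (1.18 to 2.27) and SMAD (1.03 to 2.52) intervals included 1.19, the ratio over the windows of all protein-coding genes. In the stronger 50% of each list there were 128 and 174 hotspots, and 43.7% of those in U2OS were overlapped. There 9 genes were called for U2OS, of which 4 were among the 11. There 14 promoters were open in both lines and 26 in neither, while 6 were open only in Saos-2 and 0 only in U2OS. At BMP1 the difference there reversed, to -1. Division by the whole-list ratio left 4 genes called for U2OS. Division by the chromosome's ratio left 3, with 3 for Saos-2. With overlap of at least 50% of both hotspots, 49.3% and 38.2% were shared. In a setting chosen after seeing the data, without BMP5 and BMP6, the BMP and GDF ligand ratio was 1.70 (1.04 to 2.85). That interval includes the whole-list ratio of 1.23 and the 1.19 over the windows of all protein-coding genes. Shares over all protein-coding genes were computed only for the main settings and for division by the whole-list ratio. Calls and promoter classes under the other settings are therefore not read as particular to the members. The causes of the changes under these alternatives were not tested. Of the 12 called genes, BMP5 was called under 9 of 9 alternatives, BMP6 and ID3 under 8, BMP10 under 7, and BMP8B, SMAD4 and FST under 5. BMP3 and ACVR2A were called under 4, ACVR1B and BMP1 under 3 and ACVRL1 under 1. Unknown depth limits every statement that a site was not called.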
